A study of Drosophila melanogaster with 13 samples.

Results

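Long noncoding RNAs (lncRNAs) are transcripts without a long reading frame, and antisense RNAs (asRNAs) are noncoding transcripts read from the strand opposite another gene. The testis expresses many of both kinds, and in Drosophila much testis-specific transcription starts in primary spermatocytes. There, aly and topi encode subunits of the testis meiotic arrest complex, sa encodes a testis form of a TATA-binding-protein-associated factor, and dany encodes a nuclear protein of spermatocytes. Mutants of sa, aly and topi are known for germ cells that stop before the meiotic divisions.

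The RNAs described here are all genes on the array whose current symbol begins with lncRNA: or asRNA: and whose probe could be tied to that 1 symbol through its transcript accession or clone name. They were represented by 123 array targets of 111 genes, a target being 1 named transcript or clone. A target was kept where a probe stood well above background on all arrays of at least 1 genotype, which left 88 targets of 82 genes, 60 lncRNA targets of 55 genes and 28 asRNA targets of 27 genes, among 19647 targets tested on the array. The current gene table lists 1947 lncRNA and 503 asRNA genes, so the array samples a small part of each class.

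Testes of adult Drosophila melanogaster males aged 0 to 2 days and raised at 25 °C were dissected, and 80 testes were pooled for each total RNA sample, which was labelled with Cy3 and hybridised to 1 array. The dany males (n = 3) carried the allele dany[ex11] over the deficiency Df(2R)BSC802, with a w[1118] X chromosome. The sa males (n = 2) had sa[1], on a chromosome marked with th and red, over sa[2], on one marked with ru, h and ca, and a + X chromosome. The aly males (n = 2) had aly[2] over aly[5], each with red and e, and a w* X chromosome. The topi males (n = 2) had topi[Z3-0707] over topi[Z3-2139], with bw and a + X chromosome. Control males (n = 4) had Df(2R)BSC802 over a + chromosome and the w[1118] X chromosome, so that dany and control males shared the deficiency. The sa, aly and topi males did not have that deficiency in their labels, and had other marker alleles and X chromosomes, so that mutation and stock background cannot be told apart for them. All 4 comparisons with control used the same 4 control arrays.

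The level of a target is the log2 processed signal of its brightest kept probe minus the 75th percentile of the array, so that 0 is the brightness of that percentile. Levels of different probes are not comparable. A change was called at a Benjamini-Hochberg adjusted p under 0.05 by limma's two-sided moderated test over all 19647 targets, together with at least a 2-fold difference, and all adjusted p-values below come from that test. Where 1 genotype was below background on all its arrays, an "at least" fold against the detection limit is given instead of the fitted difference. Because whole testes were pooled, fewer cells of a type and less RNA per cell cannot be told apart.

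Several facts of the arrays bear on these values. Slide 1 held replicate 1 of control, dany, sa and aly, and slide 2 held control replicate 2, aly replicate 2 and topi replicate 1. Slide 3 held control replicate 3 and replicate 2 of dany, sa and topi, and slide 4 held control replicate 4 and dany replicate 3. Statements below that arrays overlap compare arrays across slides. The share of all probes above background was 74.9% to 75.9% on dany arrays, 68% to 71.9% on sa arrays, 63.5% to 65.4% on aly arrays, 61.6% to 63.8% on topi arrays and 60.1% to 68.3% on control arrays. The 2 topi arrays stood apart from each other. The 25 lncRNA targets called lower in topi were higher on topi replicate 2 than on replicate 1 by a median of 2.12 on the log2 scale, and the 19 asRNA targets by 1.65, against 0.7 for the 4223 targets of any kind called lower in topi. The same lncRNA targets differed between the pairs of sa and aly arrays by medians of 0.29 and -0.1. Because the test fits 1 spread per target over all genotypes, targets that differed between the topi arrays had wider standard errors in comparisons without topi too. The 4 mutated genes were not matched to a probe by symbol, so they were not checked in their own samples.

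Markers of other cells moved with some groups. Of 14 listed germline genes 6 were tested, of which 4 fell in dany and 2 each in sa, aly and topi, while 2 genes rose in some mutants and neither did so in dany. These were wuc (2.23 in aly and 3.05 in topi) and Cyp1 (1.68 in sa and 2.45 in topi). Their summed linear level was 5.19 to 6.89 for dany, 6.68 to 8.14 for sa, 13.8 to 18.3 for aly, 18.3 to 25.9 for topi and 33.4 to 37.3 for control. All 6 were above background on all control arrays except Cyp1, which was above it on 2 of 4. Of 5 listed gut enzyme genes 3 were tested, LysE, epsilonTry and Jon65Aiii, and all 3 were higher in dany, LysE also in aly and topi. Their summed level was 0.787 to 0.914 in dany and 0.792 to 1.21 in topi, against 0.0275 to 0.0487 in control. epsilonTry was above background on no sa, aly, topi or control array. Of 7 listed cyst and hub genes 3 were tested (eya, puc and ptc), with sums of 0.0765 to 0.0914 for dany, 0.0735 to 0.0921 for sa, 0.0924 to 0.17 for aly, 0.0995 to 0.122 for topi and 0.0678 to 0.139 for control. None of the listed genes of accessory gland, muscle, blood cells or fat body was matched to a probe. The part of these cells in the results below was not tested.

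In aly and topi, the antisense class held many more falls than rises, while the lncRNAs moved both ways in all mutants. In dany, 8 of 60 lncRNA targets rose and 17 fell, against 28.1% of all tested targets called higher and 15.7% called lower. The median lncRNA change was -0.72 on the log2 scale, against 0.06 for all targets. In the same mutant 2 of 28 asRNA targets rose and 6 fell, with a median of -0.74. In sa, 6 lncRNA targets rose and 10 fell (median -0.16), and 4 asRNA targets rose and 11 fell (median -1.06), beside 27% of all targets higher and 14.9% lower with a median of 0.43.

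In aly, 18 lncRNA targets rose and 22 fell with a median of 0.27, and 5 asRNA targets rose and 16 fell with a median of -3.52. Among all targets 39.3% were higher and 20.6% lower in aly, with a median of 0.77. In topi, 21 lncRNA targets rose and 25 fell (median 0.12), while 4 asRNA targets rose and 19 fell (median -4.13), beside 42.1% of all targets higher, 21.5% lower and a median of 0.81. With targets below background set at their bounds, the asRNA medians became -0.94 in sa, -1.55 in aly and -3.24 in topi. These shares are descriptions of targets that passed the filter: 13 of the 60 lncRNA and 6 of the 28 asRNA targets passed it only through mutant arrays. Through 1 genotype alone passed 7 lncRNA and 5 asRNA targets, a choice that favours a difference in that genotype. Among them were lncRNA:CR34047 and asRNA:CR43470 (dany), lncRNA:CR43148, asRNA:CR43615 and asRNA:CR17025 (sa), and lncRNA:CR33948, lncRNA:CR43372 and asRNA:CR43464 (control). Their p-values in comparisons with that genotype are not separate support. Others were not called there, such as asRNA:CR30267, kept through dany (0.01 against control).

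The balance of higher and lower calls depended on the scaling of the arrays. For lncRNA targets in dany it was 3 higher and 35 lower with median scaling, 4 and 24 with quantile normalization, 9 and 8 with spike-in scaling, and 2 and 18 with normexp background correction. In aly the lncRNA split was 23 higher and 19 lower with median scaling, 8 and 20 with spike-in scaling, and 10 and 20 with normexp. The asRNA split in dany was 3 higher and 4 lower with spike-in scaling. In aly and topi, falls outnumbered rises among asRNA targets under each scaling run, from 16 to 17 falls in aly and from 17 to 20 in topi. With slide as a fixed term or as a random block, 13 asRNA targets were called in dany, and with the random block 28 lncRNA targets in sa.

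**Figure D1:**
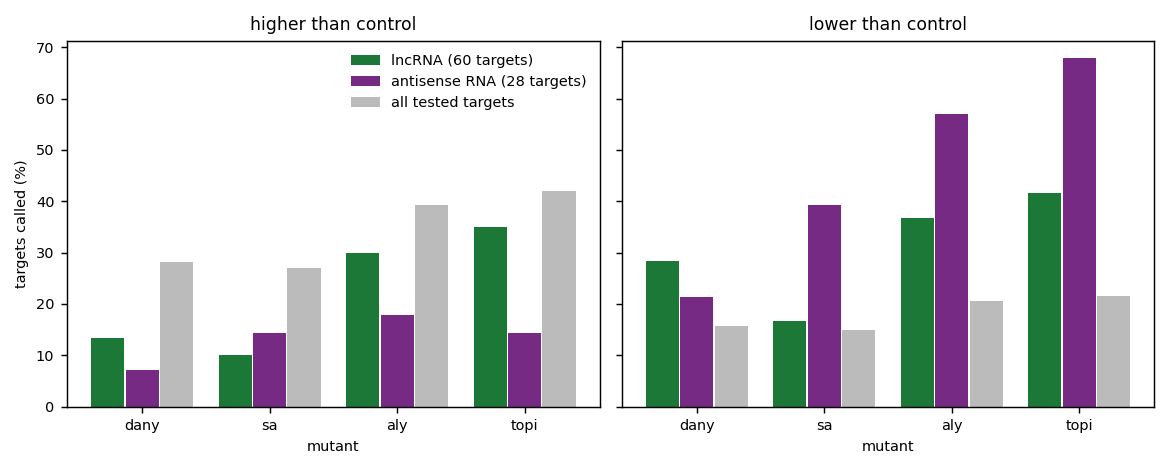
Percentage of targets called higher (left panel) and lower (right panel) than control, on the vertical axis, for each mutant on the horizontal axis, with bars for the 60 lncRNA targets, the 28 asRNA targets and all 19647 tested targets. In topi, 19 of 28 asRNA targets were called lower, beside 21.5% of all targets.

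On all arrays of the genotype, 25 of 28 asRNA targets stood above background in dany, 24 did so in sa, 13 each in aly and in topi, and 22 in control. For the 60 lncRNA targets these numbers were 49 for dany, 53 for sa, 41 each for aly and topi, and 47 for control. The same background flag chose the targets, so these numbers are a description only. In aly 16 lncRNA and 11 asRNA targets were above background on neither array. Only 31 lncRNA and 8 asRNA targets were above background on all 13 arrays.

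**Figure D2:**
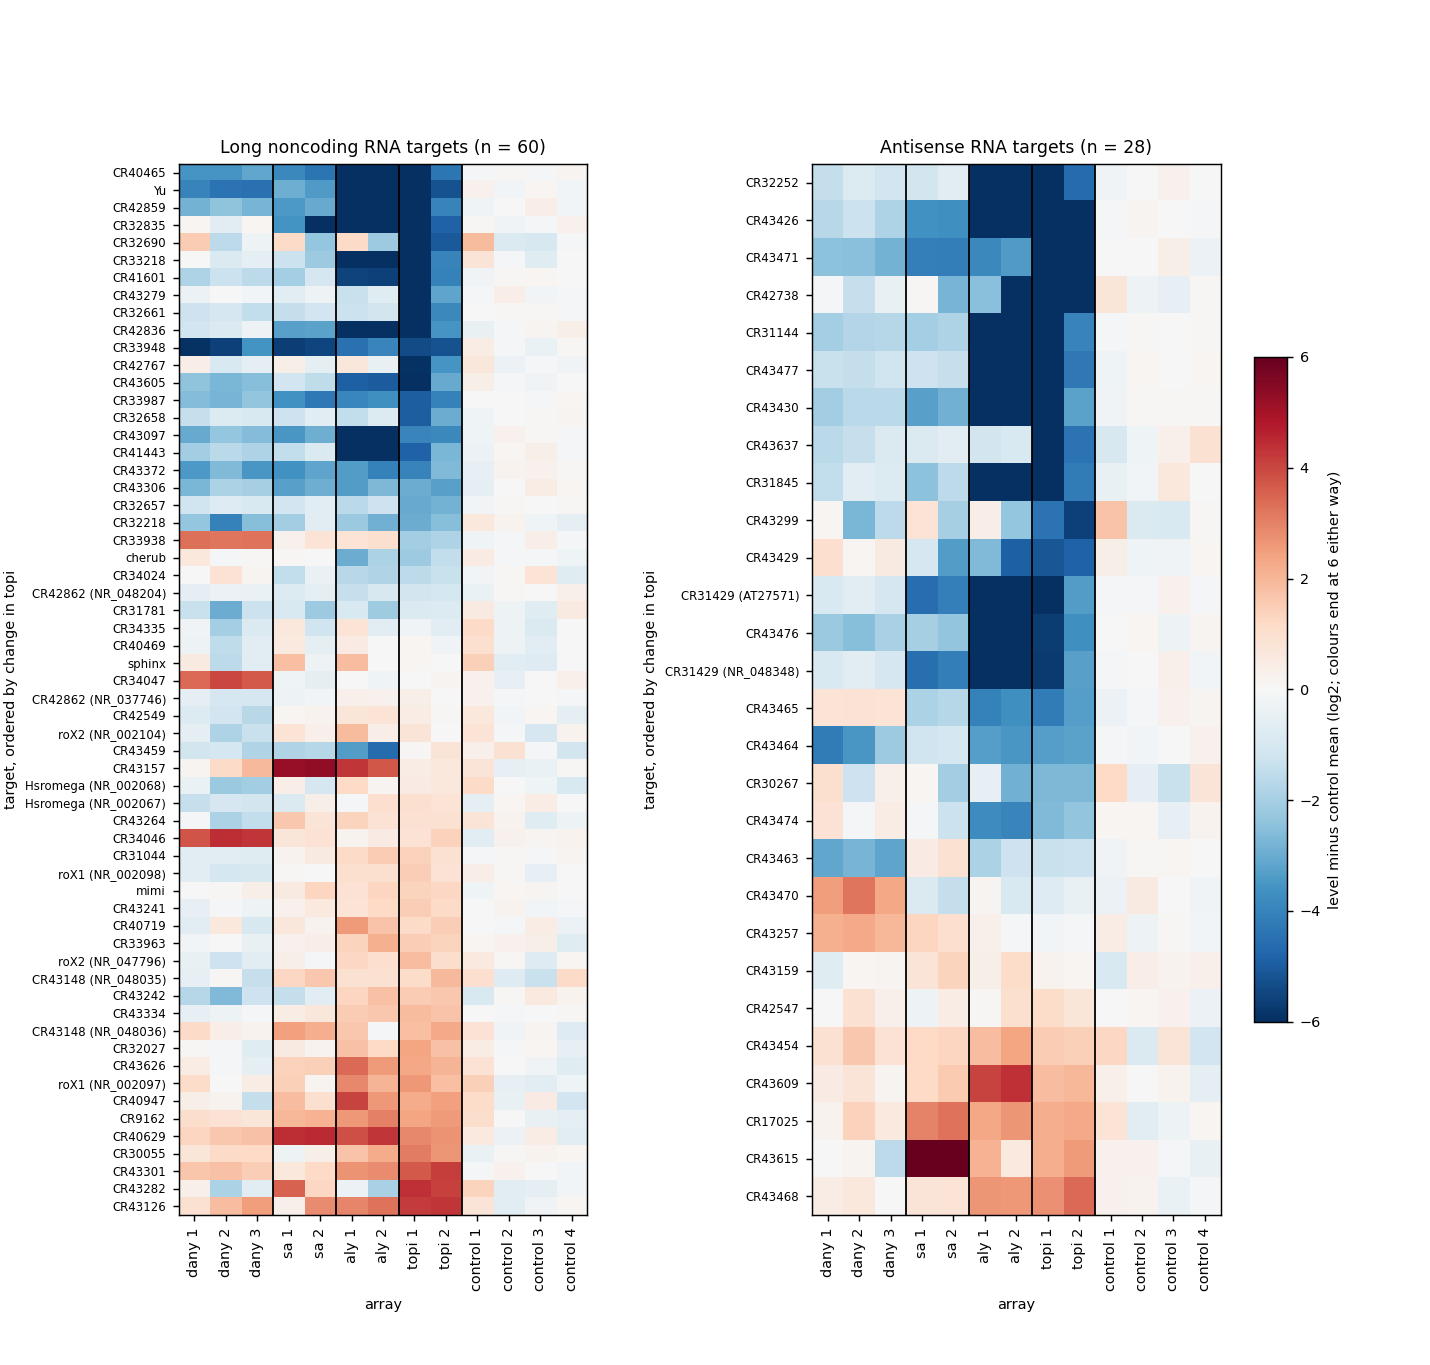
Level of each lncRNA target (left) and asRNA target (right) on each of the 13 arrays minus the control mean, in log2 units, with mutant arrays left of control arrays and targets ordered by their change in topi. Dark blue in the aly and topi columns marks targets more than 6 log2 units below control on at least 1 array, and topi 2 is paler than topi 1 for most of these.

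The lncRNA that marks this set, lncRNA:Yu (target NR_037745, chromosome arm 2R), was lower in each mutant. Its levels were -2.5, -2.88 and -2.93 in dany, -1.42 and -1.88 in sa, -8.16 and -8.31 in aly, and -8.12 and -3.72 in topi, against 1.78, 1.36, 1.63 and 1.34 in control. Every mutant array lay below every control array, and the lowest levels were those of aly and topi replicate 1. The fitted change was -4.3 in dany (SE 0.762, adjusted p = 0.000689) and -3.18 in sa (SE 0.864, adjusted p = 0.0111). Without sa replicate 2 the sa change was -2.95 and no longer called, and leaving out no other array ended that call. In aly the RNA was below background on both arrays and at least 206-fold lower than in control (adjusted p = 4.11e-06). In topi the change was -7.45 (adjusted p = 2.58e-05), and it was -5.25 without topi replicate 1 and -9.65 without topi replicate 2. Between mutants lncRNA:Yu was 5.43 log2 units higher in sa than in aly and topi averaged (SE 0.864, adjusted p = 0.00064) and 2.5 higher in dany than in the other 3 mutants averaged (SE 0.705, adjusted p = 0.00813). Ordered by mean level, control was followed by sa, dany, topi and aly. The sa and dany arrays did not overlap, while aly and topi did not differ by the test (adjusted p = 0.157).

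Among 168 other tested targets with a gene name rather than an annotation number, those whose level most resembled that of lncRNA:Yu over the 13 arrays were Nasp, with a Pearson coefficient of 0.995, ND-B14.5AL with 0.937 and Vha100-3 with 0.933. Nasp encodes a histone chaperone, ND-B14.5AL a subunit-like protein of mitochondrial complex I, and Vha100-3 a subunit of the vacuolar proton pump. The 13 arrays share their genotype groups, slides and scaling, and the coefficients are given as a description only.

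Of the 7 lncRNA genes with a name beyond their annotation number, cherub, described in tumour-forming neuroblasts, was lower in aly and topi. It was below background on all 4 of those arrays, at least 4.22-fold lower in aly (adjusted p = 0.000115) and at least 3.5-fold lower in topi (adjusted p = 0.000867) than in control. In dany and sa it changed by 0.22 and 0.03, neither of which was called, and sa stood 2.17 above aly and topi averaged (adjusted p = 0.000715). The lncRNA mimi was higher in aly (1.07, SE 0.253, adjusted p = 0.00331) and in topi (1.28, SE 0.253, adjusted p = 0.000983). In topi both its arrays, at 0.67 and 0.6, lay above all 4 control arrays, at -0.91 to -0.5, as did both aly arrays, at 0.23 and 0.63. The aly change of lncRNA:mimi was under 2-fold without aly replicate 2 (0.88) or control replicate 1 (0.98).

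The roX RNAs guide the dosage compensation complex to the X chromosome in male somatic cells. The target NR_047796 of lncRNA:roX2 was at -4.29, -5.12 and -4.5 in dany, -3.51 and -3.98 in sa, -2.61 and -2.83 in aly, and -2.02 and -2.79 in topi, against -3.26, -3.8, -4.61 and -3.75 in control. Both aly and both topi arrays lay above all control arrays, and the dany arrays overlapped them. Its change was 1.13 in aly (SE 0.386, adjusted p = 0.0232) and 1.45 in topi (SE 0.386, adjusted p = 0.00618). The other roX2 target was called in no mutant.

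For lncRNA:roX1, target NR_002097 rose in aly by 2.45 (SE 0.613, adjusted p = 0.00471) and in topi by 2.21 (adjusted p = 0.00786), and target NR_002098 rose in topi by 1.18 (SE 0.267, adjusted p = 0.00232), with 0.97 in aly. Leaving out topi replicate 1 ended the calls of both targets in topi (1.81 with adjusted p = 0.0753, and 0.88, which is under 2-fold). Without aly replicate 1, the aly change of the first target was 2.03 with an adjusted p of 0.0526. For lncRNA:roX2 without topi replicate 1 the topi change was 1.07 with an adjusted p of 0.079, and the aly call was lost without aly replicate 1 (1.03, adjusted p = 0.117), aly replicate 2 (1.24, adjusted p = 0.0665) or control replicate 3 (0.88). Relative to the other 3 mutants averaged, roX1 and roX2 differed in dany by -1.62 for NR_002098 (adjusted p = 6.97e-05) and -1.68 for NR_047796 (adjusted p = 0.000693).

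Hsromega, the heat-shock RNA of the nuclear omega speckles, fell in dany. Its 2 targets changed by -1.16 (SE 0.354, adjusted p = 0.0171) and -1.56 (SE 0.583, adjusted p = 0.0421) in dany, by -0.26 and -0.3 in sa, by 0.44 and 0.69 in aly and by 0.9 and 0.56 in topi. Against the other 3 mutants averaged, dany differed by -1.52 (adjusted p = 0.00171) and -1.87 (adjusted p = 0.00903). For the first target the levels were 0.43, 0.8 and 0.7 in dany, against 1.25, 1.94, 2.25 and 1.77 in control, with no overlap. For the second they were 0.15, -1.65 and -1.52 in dany, against 1.71, 0.54, 0.31 and -0.34 in control, and these overlapped across slides. Within each slide the dany array lay below the control array, at 0.15 against 1.71, -1.65 against 0.31 and -1.52 against -0.34. With spike-in scaling the changes of lncRNA:Hsromega in dany were -0.47 and -0.87, neither called. The first lost its call without dany replicate 1 (-1.05, adjusted p = 0.0606), and the second without dany replicate 2 (-1.24, adjusted p = 0.15) or 3 (-1.3, adjusted p = 0.14) and without any 1 of control replicates 1 to 3 (adjusted p = 0.0608 to 0.0974). The lncRNA sphinx, known for a role in male courtship, was not called in any mutant, with changes of -0.57 for dany, 0.74 for sa, 0.92 for aly and 0.04 for topi.

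The lncRNAs known only by annotation number included the largest changes. lncRNA:CR33948 (3L) was at -8.54, -8.25 and -6.2 in dany, -8.26 and -8.16 in sa, -7.12 and -6.6 in aly, and -8.02 and -7.84 in topi, against -2.21, -2.75, -3.03 and -2.54 in control. All 9 mutant arrays lay below all control arrays, and 8 of the 9 were at background, so the target was kept through control alone. The change was -5.03 in dany (SE 0.478, adjusted p = 7.33e-06), and the RNA was at least 14.4-fold lower in sa (adjusted p = 2.2e-05), 11.5-fold in aly (adjusted p = 5.1e-05) and 9.62-fold in topi (adjusted p = 1.08e-05). Without dany replicate 3, the array above background, the dany change of lncRNA:CR33948 was -5.76.

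lncRNA:CR40465 (2L) was at -0.82, -0.8 and -0.41 in dany, -1.15 and -1.65 in sa, -8.19 and -8.32 in aly, and -8.08 and -1.62 in topi, against 2.6, 2.8, 2.6 and 2.91 in control. Mutant and control arrays did not overlap. The change was -3.41 in dany (SE 1.1, adjusted p = 0.0221) and -4.13 in sa (SE 1.24, adjusted p = 0.0182), and in aly the RNA was at least 472-fold lower (adjusted p = 2.15e-05). In topi the change of lncRNA:CR40465 was -7.58 (adjusted p = 0.000286), with -4.35 without topi replicate 1 and -10.81 without topi replicate 2. Its sa call was lost without either sa array (adjusted p = 0.066 and 0.103), and its dany call without dany replicate 1 or 2 (adjusted p = 0.0585 and 0.0591).

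lncRNA:CR42859 (2L, overlapping the coding gene CG4267 in the current annotation) was at 0.32, 0.76 and 0.37 in dany, -0.31 and 0.13 in sa, -8.25 and -8.44 in aly, and -7.5 and -0.84 in topi, against 2.91, 3.18, 3.54 and 3 in control. No mutant array reached the control range. The fall in aly was at least 635-fold (adjusted p = 1.97e-05), and in topi the change was -7.32 (adjusted p = 0.00045), with -3.99 without topi replicate 1 and -10.65 without topi replicate 2. In dany and sa the changes were -2.67 (adjusted p = 0.0681) and -3.25 (adjusted p = 0.0564), which did not pass the test despite the separation of the arrays. The test shares 1 spread over all genotypes. For this target the standard deviation between arrays was 4.71 in topi, against 0.241 in dany, 0.31 in sa and 0.277 in control.

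lncRNA:CR32835 (2R) was at 0.21, -0.58 and 0.23 in dany, -3.47 and -7.93 in sa, -8.1 and -8.3 in aly, and -8.03 and -4.76 in topi, against 0.19, -0.12, 0 and 0.34 in control. The dany arrays overlapped control, while all arrays of the other mutants were lower. The changes were -5.81 in sa (SE 1.08, adjusted p = 0.00134) and -6.5 in topi (adjusted p = 0.00031), and in aly the RNA was at least 76.7-fold lower (adjusted p = 5.65e-05). The sa arrays differed widely, with a change of -8.04 without sa replicate 1 and -3.58 without sa replicate 2, and in topi it was -4.86 without topi replicate 1 and -8.13 without topi replicate 2. Against the other 3 mutants averaged, lncRNA:CR32835 was 6.72 log2 units higher in dany (SE 0.881, adjusted p = 5.85e-05). lncRNA:CR42836 (3R) had a similar order of levels, with changes of -0.76 in dany (not called), -3.23 in sa (adjusted p = 0.00529) and -5.34 in topi (adjusted p = 0.000111), and a level at least 35.2-fold lower in aly (adjusted p = 1.97e-05). Its topi change was -3.55 without topi replicate 1 and -7.13 without topi replicate 2.

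Other lncRNAs were called lower in each mutant. lncRNA:CR33987, which overlaps tio, changed by -2.58 in dany, by -3.96 in sa, by -3.8 in aly and by -4.5 in topi, and lncRNA:CR43306 by -2.22, -3.09, -3.04 and -3.11 in the same order. lncRNA:CR43372 changed by -3.2 in dany (-2.5 by its other kept probe), and was at least 5.52-fold lower in sa, 4.4-fold in aly and 3.68-fold in topi. lncRNA:CR43097, which overlaps sick, changed by -2.67 in dany, -3.21 in sa and -3.91 in topi, and was at least 139-fold lower in aly (adjusted p = 4.91e-09). Here aly differed from topi, by at least 9.23-fold (adjusted p = 1.2e-06).

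The remaining falls were mostly those of aly and topi. lncRNA:CR33218, which lies on the X chromosome and overlaps Raf, was at least 225-fold lower in aly and changed by -6.28 in topi. lncRNA:CR41443 was at least 101-fold lower in aly and changed by -1.83 in dany and -3.81 in topi. lncRNA:CR43605 was at least 30.9-fold lower in aly and changed by -2.57 in dany and -4.65 in topi, and lncRNA:CR41601 changed by -5.57 in aly and -5.97 in topi. Without topi replicate 1 the topi change was -3.98 for lncRNA:CR33218, -2.75 for lncRNA:CR41443, -3.03 for lncRNA:CR43605 and -4.04 for lncRNA:CR41601, and without topi replicate 2 it was -8.58, -4.87, -6.28 and -7.89 in the same order. Smaller falls were those of lncRNA:CR32218 (-2.99 in dany, -2.57 in aly and -2.79 in topi), lncRNA:CR31781 (-1.86 in dany and -1.51 in aly), target NR_048204 of lncRNA:CR42862 (-1.17 in aly and -1.09 in topi, where other probes of the gene reached 0.99 and 0.88 and the mean of its kept probes gave -0.26 and -0.22, not called) and lncRNA:CR42549 (-1.21 in dany, -0.98 without dany replicate 3). lncRNA:CR34024 was called lower in aly and topi, where it was below background, but it stood above background on only 2 of 4 control arrays and no fold is given. lncRNA:CR43459 changed by -1.32 in dany and -1.77 in sa and was at least 5.29-fold lower in aly, with 0.42 in topi (not called), and aly was at least 7.09-fold below topi (adjusted p = 0.000698). The dany call of lncRNA:CR43459 was lost without any 1 of the dany arrays or of control replicates 1 to 3, and its sa call without either sa array (adjusted p = 0.0856 and 0.0765). Other calls in this group that ended with 1 array left out were those of lncRNA:CR31781 in dany (without dany replicate 2, adjusted p = 0.054) and in aly (without aly replicate 2, adjusted p = 0.319, and without control replicate 1, 2 or 4 or either topi array), of lncRNA:CR42862 in aly (without aly replicate 1, -0.95) and topi (without control replicate 4, -0.99), and of lncRNA:CR34024 in topi (without topi replicate 1, adjusted p = 0.0669).

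Among rises, those of lncRNA:CR34046 (3R), lncRNA:CR34047 (3L) and lncRNA:CR33938 (3R) were the largest in dany. lncRNA:CR34046 was at -0.35, 0.31 and 0.19 in dany, -3.37 and -3.26 in sa, -3.89 and -3.63 in aly, and -3.24 and -2.74 in topi, against -4.73, -3.87, -3.97 and -3.88 in control. The dany arrays stood apart from all others. The change was 4.16 in dany (SE 0.264, adjusted p = 3.93e-07) and 1.12 in topi (adjusted p = 0.00636), where it was 0.87 without topi replicate 2 and 0.92 without control replicate 1, in both cases not called. Against the other 3 mutants averaged, lncRNA:CR34046 was 3.4 higher in dany (SE 0.244, adjusted p = 7.79e-07).

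lncRNA:CR34047 was at -4.64, -4.03 and -4.38 in dany, -8.33 and -8.62 in sa, -8.05 and -8.33 in aly, and -8.09 and -7.88 in topi, against -7.8, -8.56, -8.09 and -7.77 in control. It stood above background on all dany arrays and on no other array, so it was kept through dany alone. Its dany level was at least 4.38-fold that of control (adjusted p = 4.26e-07), and with normexp background correction its change of 0.85 was under 2-fold. lncRNA:CR33938 changed by 3.26 in dany (SE 0.209, adjusted p = 4.17e-07), with levels of -2.57, -2.7 and -2.61 in dany against -6.13, -6, -5.47 and -5.96 in control. In topi, where it was below background, it was at least 1.01-fold lower (adjusted p = 3.44e-05). The 3 gut enzyme genes rose in dany too, by 4.66, 5.52 and 4.13, and the part of gut tissue in these lncRNA rises was not tested.

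The Y chromosome carries 2 of the kept lncRNA targets. lncRNA:CR40629 was called higher in each mutant, at -6.33, -6 and -5.88 in dany, -3.2 and -3.13 in sa, -3.76 and -3.32 in aly, and -4.75 and -4.94 in topi, against -7.03, -7.95, -7.19 and -8.29 in control, where it was below background. All mutant arrays lay above all control arrays. Its rise was at least 1.33-fold in dany (adjusted p = 0.00138), 9.98-fold in sa (adjusted p = 5.31e-06), 7.69-fold in aly (adjusted p = 3.01e-06) and 3.11-fold in topi (adjusted p = 4.22e-05). In dany its direction turned with normexp background correction (-0.35). lncRNA:CR40719 rose by 2.14 in aly (adjusted p = 0.00125) and 1.33 in topi (adjusted p = 0.0175), and the coding gene it overlaps, CG40635, changed by -1.84 in dany, by -1.21 in sa and by 1.09 in aly, with 0.21 in topi (not called). The topi call of lncRNA:CR40719 was lost without topi replicate 2 (1.16, adjusted p = 0.1).

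lncRNA:CR43157 (X) was at -8.3, -7.32 and -6.52 in dany, -3.25 and -3.18 in sa, -4.18 and -4.73 in aly, and -8.02 and -7.84 in topi, against -7.69, -8.96, -8.86 and -8.4 in control. The sa and aly arrays stood far above the rest. It was at least 9.6-fold higher in sa (adjusted p = 1.35e-05) and 4.07-fold in aly (adjusted p = 2.72e-05), and no control or topi array was above background. The dany call (adjusted p = 0.0445) had 1 of 3 arrays above background, was lost in 19 alternative settings, and turned direction with normexp (-0.45) and on slide 1 alone.

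lncRNA:CR43126 (3R) was at -7.68, -6.75 and -6.11 in dany, -8.3 and -5.75 in sa, -5.66 and -5.36 in aly, and -4.38 and -4.31 in topi, against -7.81, -9.27, -8.82 and -8.48 in control, where it was below background. The aly and topi arrays lay above all control arrays, and dany arrays lay above them with a narrow gap. It was at least 1.96-fold higher in aly (adjusted p = 0.00176) and 4.4-fold in topi (adjusted p = 0.000191). In dany it was called with 2 of 3 arrays above background and no fold is given, the call was lost without dany replicate 2 or 3 or control replicate 2 or 3, and with normexp the direction turned (-0.2).

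lncRNA:CR43282 (3R) was at -4.23, -6.46 and -5.26 in dany, -1.03 and -3.32 in sa, -4.91 and -6.52 in aly, and -0.17 and -0.47 in topi, against -3.24, -5.18, -5.11 and -4.7 in control. The topi arrays were the highest. The aly and dany arrays overlapped control, and sa replicate 2, at -3.32, also lay within the control range. That range mixes slides, since sa replicate 2 shared slide 3 with control replicate 3, at -5.11. Within each slide the sa array lay above the control array, and the aly and dany arrays lay below it. The change was 4.24 in topi (SE 0.815, adjusted p = 0.000827) and 2.38 in sa (SE 0.815, adjusted p = 0.032), and the sa call was lost without sa replicate 1 (1.23, adjusted p = 0.319) and without control replicate 2, 3 or 4 (adjusted p = 0.0692, 0.0683 and 0.0598). Between mutants, lncRNA:CR43282 differed by -5.4 in aly relative to topi (SE 0.941, adjusted p = 0.00289).

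Rises of 1 to 4 log2 units in aly and topi together were found in a further group. lncRNA:CR43301 changed by 1.62 in dany, 0.94 in sa (not called), 2.79 in aly and 3.9 in topi. Its dany value was 0.87 with median scaling, 0.67 with quantile normalization, 0.67 with normexp and 0.62 in the deposited values, none called. lncRNA:CR30055, which overlaps the corepressor gene Sin3A, changed by 1.02 in dany, 1.95 in aly and 2.86 in topi. lncRNA:CR9162 rose by 2.03 in sa, by 2.81 in aly and by 2.47 in topi, and lncRNA:CR43626 by 1.39, 2.98 and 2.18 in the same mutants. In aly and topi, lncRNA:CR32027 (overlapping Indy) rose by 1.49 and 2.05, lncRNA:CR43334 by 1.56 and 1.79, lncRNA:CR33963 (overlapping Tis11) by 1.74 and 1.41, lncRNA:CR31044 by 1.34 and 1.16 and lncRNA:CR43241 by 1.01 and 1.33. lncRNA:CR40947 was at least 4.77-fold higher in aly and 2.4-fold in topi, and its fitted aly change was 2.59 without aly replicate 1 and 4.07 without aly replicate 2. Target NR_048036 of lncRNA:CR43148 was called higher in sa, at least 2.05-fold, and in topi, at least 1.7-fold. lncRNA:CR43242 moved both ways, with rises of 1.54 in aly and 1.57 in topi and at least a 1.46-fold fall in dany. Calls of this group were lost for lncRNA:CR43626 in sa without either sa array, for lncRNA:CR30055 in dany without dany replicate 2 or 3 or control replicate 1, for lncRNA:CR31044 in topi without topi replicate 1, for lncRNA:CR40947 in topi without topi replicate 2, for lncRNA:CR43241 in aly without aly replicate 2 or control replicate 3 or 4, and for lncRNA:CR43242 in aly without aly replicate 2 and in topi without topi replicate 2. Beside sphinx, the lncRNAs called in no mutant were CR34335, CR40469 and CR43264 on the X and the second targets of CR42862, CR43148 and roX2.

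Other settings ended several calls of lncRNAs. With spike-in scaling the calls lost were those of CR31781, CR32658, CR41443, CR42549, CR43242, CR43306, CR43459 and Hsromega in dany, CR43459 and CR43626 in sa, CR30055, CR31044, CR32027, CR32658, CR33963, CR40719, CR42862, CR43241, CR43242, CR43334, mimi and roX2 (NR_047796) in aly, and CR31044, CR33963, CR34024, CR34046, CR40719, CR42862, CR43241, CR43242, mimi and roX1 (NR_002098) in topi. With normexp they were those of CR30055, CR34047, CR40629, CR43126, CR43157, CR43242 and CR43301 in dany, CR43148 and CR43626 in sa, CR31044, CR32027, CR34024, CR40719, CR42862, CR43126, CR43241, CR43242, CR43334 and roX2 (NR_047796) in aly, and CR31044, CR33938, CR33963, CR34024, CR34046, CR40629, CR40719, CR40947, CR42862, CR43148, CR43242, CR43372, CR43626 and cherub in topi. At least 1 of median scaling, quantile normalization and the deposited values ended those of CR30055, CR32658, CR40629, CR43126, CR43157, CR43242, CR43301 and Hsromega (NR_002067) in dany, CR43626 in sa, CR31781, CR32658, CR42862, CR43241, CR43242 and mimi in aly, and CR31044, CR40719, CR42862, CR43242 and roX1 (NR_002098) in topi. With slide as a fixed or random term the calls lost were those of CR43157 in dany, and CR32658, CR43241 and roX2 (NR_047796) in aly. Taking the mean of the kept probes ended the topi call of CR34046 (0.59).

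**Figure D3:**
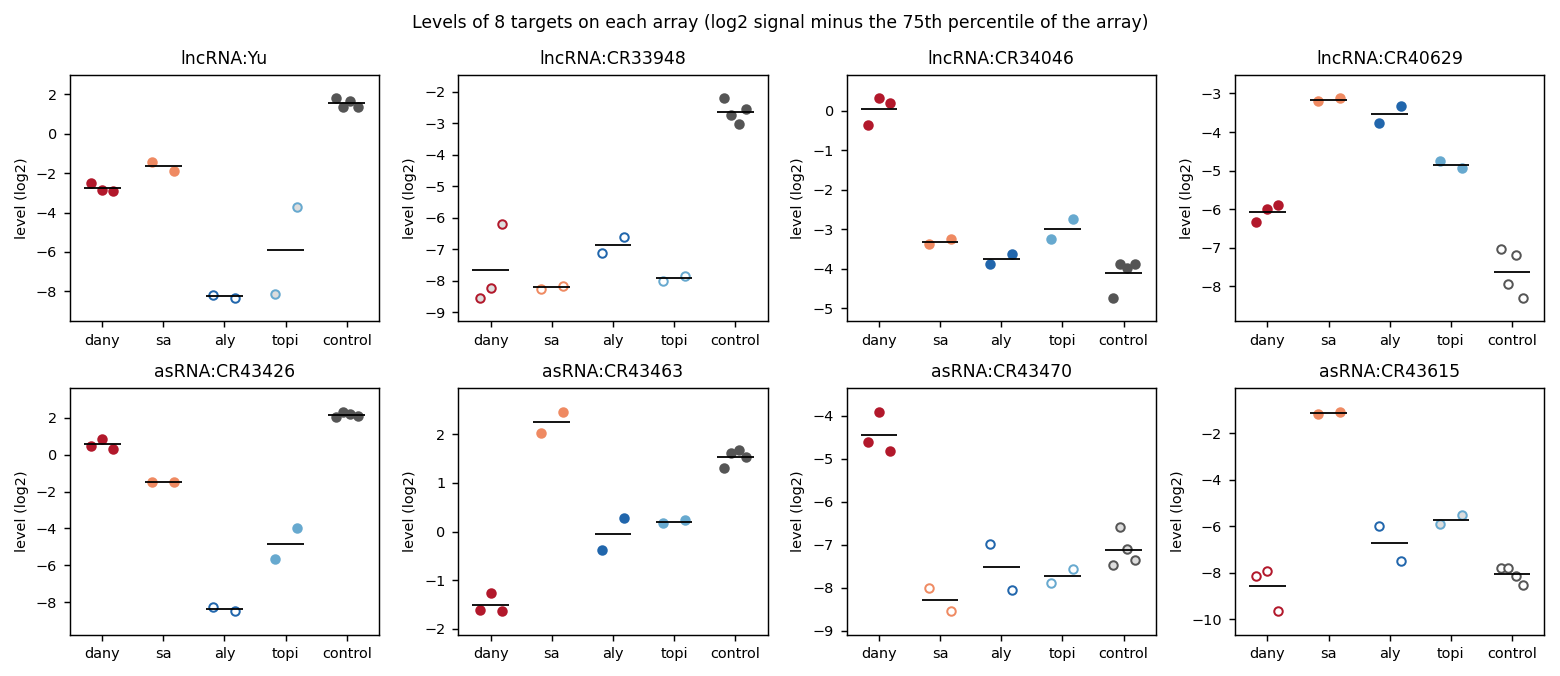
Level on each array (log2, vertical axis) of 4 lncRNA targets (top row) and 4 asRNA targets (bottom row) by genotype, with the mean of each genotype as a line. Filled points belong to genotypes above background on all arrays, open points to genotypes below it on all arrays and grey-filled points to genotypes above it on some arrays. lncRNA:CR34046 is high in dany alone, at -0.35 to 0.31, and asRNA:CR43615 in sa alone, at -1.19 and -1.08.

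The clearest split between aly and topi lay among X-linked lncRNAs, a grouping made after their values were seen. Of 60 lncRNA targets 9 were called higher in aly than in topi and 5 lower, beside 7.31% and 7.73% of all targets. Of those 9, 7 lie on the X, which carries 16 of the 60 targets, and the other 2 are CR33938 on 3R and CR40629 on the Y. By their labels the aly males carry a w* X chromosome and the topi males a + X chromosome, so the mutation and the chromosome cannot be told apart here. The sa males also carry an X chromosome labelled +, and the labels do not say whether it has the same origin. Most probes matched no gene, so no share over all X-linked targets is given.

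lncRNA:CR42767 was at 3.45, 2.14 and 2.51 in dany, 3.4 and 2.52 in sa, 3.73 and 2.61 in aly, and -2.88 and -0.47 in topi, against 3.74, 2.72, 2.93 and 2.83 in control. Only the topi arrays were low, and the change there was -4.73 against control (SE 0.645, adjusted p = 8.06e-05), with -3.52 for lncRNA:CR42767 without topi replicate 1 and -5.93 without topi replicate 2. lncRNA:CR43279 was at 4.28 and 4.91 in aly against -3.03 and 2.45 in topi, a difference of 4.89 (SE 1.23, adjusted p = 0.0209), and changed by -5.91 in topi against control. That change was -3.18 without topi replicate 1 and -8.65 without topi replicate 2. lncRNA:CR32690 was at 0.88 and -2.42 in aly against -7.86 and -5.29 in topi, a difference of 5.81 (SE 1.55, adjusted p = 0.0274), within genotypes that each spread over more than 2 log2 units between arrays. The higher aly value was from slide 1, which held no topi array. On that slide dany, sa and control were also high, at 1.27, 0.89 and 1.62, against -2.56 to -0.35 on their other arrays.

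lncRNA:CR32657 and lncRNA:CR32658 are neighbouring genes that overlap Ten-a, which encodes a teneurin. They differed between aly and topi by 1.49 (SE 0.245, adjusted p = 0.00204) and 2.82 (SE 0.528, adjusted p = 0.00435), and changed against control by -2.92 and -3.97 in topi and by -1.43 and -1.15 in aly. lncRNA:CR32658 was also called in dany (-1.05), where quantile normalization and the deposited values turned the direction (0.27 and 0.04), its dany and aly calls were lost in 11 and 10 of the 13 settings that left out 1 array, and its topi change was -2.98 without topi replicate 1 and -4.96 without topi replicate 2. lncRNA:CR32661 and lncRNA:CR43157 also neighbour each other with no gene between them. The reported probe of lncRNA:CR32661 averaged 4.89 in aly against 0.49 in topi, and changed by -5.61 in topi against control (-3.88 without topi replicate 1, -7.33 without topi replicate 2). Its other kept probe averaged 2.29 for dany, 5.23 for sa, 4.36 for aly and 1.86 for topi, against 0.8 for control. Its changes were thus positive (1.49, 4.43, 3.56 and 1.06 in that order of mutants) where those of the reported probe were negative (-1.24, -1.3, -1.21 and -5.61). The value of this gene is therefore uncertain. Among 14 member genes with several kept probes, signs differed in 13 of 56 pairs of gene and mutant, and lncRNA:CR32661 accounted for the 4 pairs in which probes moved over 2-fold both ways.

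**Figure D4:**
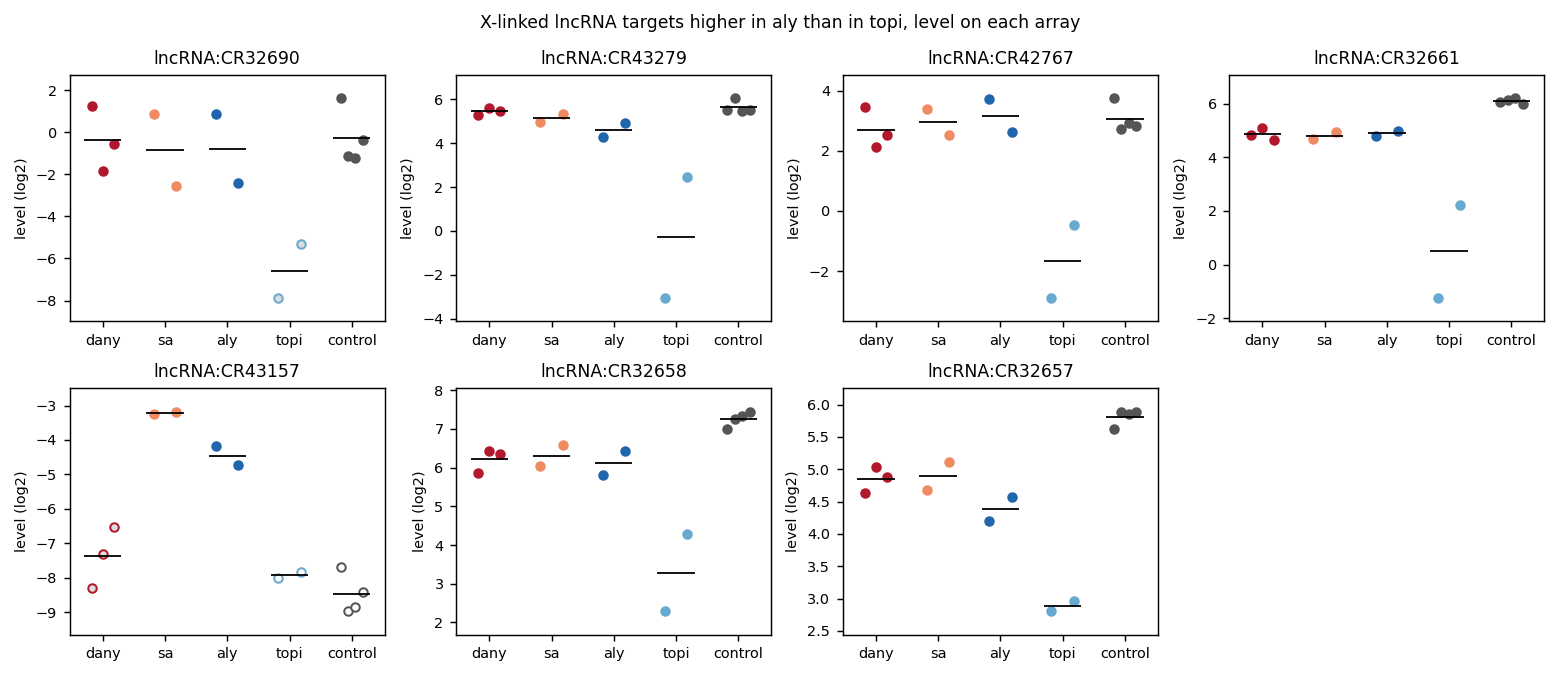
Level on each array (log2, vertical axis) of the 7 X-linked lncRNA targets called higher in aly than in topi, by genotype, with means as lines; filled, open and grey-filled points mark genotypes above background on all, no and some arrays. For CR42767 both topi arrays, at -2.88 and -0.47, lie below all other arrays.

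Among all kept asRNA targets called falls outnumbered rises, most of all in aly and topi. Of the 8 asRNA targets above background on all 13 arrays, 1 rose and 1 fell in dany, and 3 rose and 2 fell in sa. In aly and in topi 2 of these rose and 4 fell. All 27 asRNA genes overlap a coding gene in the current annotation, whose strand the table does not give, and no tested probe could be tied by symbol to a gene they overlap, so sense levels are not analysed here. asRNA:CR43426 (3L, overlapping CG32462) was at 0.48, 0.86 and 0.31 in dany, -1.46 and -1.5 in sa, -8.25 and -8.46 in aly, and -5.64 and -3.99 in topi, against 2.02, 2.32, 2.19 and 2.11 in control. All mutant arrays lay below control, in the order dany, sa, topi and aly with no overlap between neighbours. The change was -1.61 in dany (SE 0.327, adjusted p = 0.00169), -3.64 in sa (SE 0.371, adjusted p = 3.01e-05) and -6.98 in topi (adjusted p = 2.38e-07), and the RNA was at least 319-fold lower in aly (adjusted p = 1.57e-08). Without topi replicate 1 the topi change of asRNA:CR43426 was -6.15, and without replicate 2 it was -7.8.

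asRNA:CR32252 (3L, overlapping CG43367) was at 1.78, 2.36 and 2.03 in dany, 2.1 and 2.53 in sa, -7.11 and -6.38 in aly, and -7.54 and -1.41 in topi, against 2.98, 3.17, 3.46 and 3.19 in control. The dany and sa arrays lay just below control, and the aly arrays far below. It was at least 654-fold lower in aly (adjusted p = 3.21e-05) and changed by -7.67 in topi (adjusted p = 0.000198), with -4.61 without topi replicate 1 and -10.74 without replicate 2. In dany and sa the changes of -1.14 and -0.88 were not called. Against aly and topi averaged, asRNA:CR32252 was 7.93 higher in sa (SE 1.19, adjusted p = 0.000466).

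asRNA:CR31429 overlaps neur, which encodes an E3 ubiquitin ligase of the Notch pathway. Its target AT27571 was at -0.36, -0.13 and -0.47 in dany, -4.03 and -3.58 in sa, -5.99 and -5.61 in aly, and -5.6 and -2.81 in topi, against 0.41, 0.48, 0.81 and 0.46 in control. Its second target, NR_048348, was at -0.56, -0.28 and -0.67 in dany, -4.2 and -3.79 in sa, -6 and -5.97 in aly, and -5.42 and -2.92 in topi, against 0.22, 0.31, 0.66 and 0.18 in control. The 2 targets gave nearly the same levels, and both lay below control on every mutant array. The changes were -4.34 and -4.34 in sa (adjusted p = 0.00015 and 8.35e-05), -6.34 and -6.33 in aly and -4.74 and -4.51 in topi, while -0.86 and -0.85 in dany were not called. Against the other 3 mutants averaged both were higher in dany, by 4.28 (SE 0.467) and 4.21 (SE 0.425), with adjusted p of 1.56e-05 and 8.94e-06. Without topi replicate 1 the topi changes of asRNA:CR31429 were -3.35 and -3.26, and without topi replicate 2 they were -6.14 and -5.77.

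asRNA:CR43464 (2L, overlapping CG33543) was at -8.89, -8.19 and -6.88 in dany, -5.88 and -5.75 in sa, -8.01 and -8.21 in aly, and -8 and -7.89 in topi, against -4.79, -4.88, -4.69 and -4.43 in control. Only control had it above background on all arrays, so it was kept through control alone, and mutant and control arrays did not overlap. The change was -3.29 in dany (SE 0.377, adjusted p = 3.04e-05) and -1.12 in sa (adjusted p = 0.0493), and it was at least 2.75-fold lower in aly and 2.3-fold in topi. Its sa call was lost in 17 alternative settings.

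asRNA:CR43463 (2L) overlaps Pgant35A, which encodes an enzyme that adds sugars to proteins. It was at -1.61, -1.27 and -1.63 in dany, 2.03 and 2.46 in sa, -0.37 and 0.28 in aly, and 0.18 and 0.23 in topi, against 1.31, 1.62, 1.67 and 1.52 in control. The sa arrays lay above control and those of the other mutants below it. The changes were -3.04 in dany (SE 0.209, adjusted p = 6.84e-07), -1.57 in aly (adjusted p = 0.000164) and -1.32 in topi (adjusted p = 0.000511), and 0.71 in sa was under 2-fold. The difference of dany from the other 3 mutants averaged was -2.31 (SE 0.194, adjusted p = 2.3e-06), and that of sa from aly and topi averaged was 2.16 (SE 0.237, adjusted p = 6.64e-05).

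asRNA:CR43471 (overlapping CG34316) and asRNA:CR43476 (overlapping CG42534) were also called lower in each mutant. asRNA:CR43471 changed by -2.6 in dany, -4.12 in sa and -3.62 in aly, and was at least 98.9-fold lower in topi (adjusted p = 4.89e-08), where it was at least 8.06-fold below aly (adjusted p = 6.95e-05). asRNA:CR43476 changed by -2.24 in dany, -2.17 in sa and -4.69 in topi, and was at least 148-fold lower in aly (adjusted p = 1.37e-06). The sa call of asRNA:CR43476 was lost without sa replicate 2 (-1.99, adjusted p = 0.0857), and its topi change was -3.67 without topi replicate 1 and -5.71 without topi replicate 2.

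A further group was called lower in sa, aly and topi but not in dany. asRNA:CR43465, which overlaps the mitochondrial carrier gene Ucp4B, changed by 0.84 in dany, by -1.79 in sa, by -3.87 in aly and by -3.76 in topi, and asRNA:CR31845 by -0.99, -2.01, -6.25 and -5.19 in the same order. asRNA:CR43430, which overlaps the adducin gene hts, changed by -1.78 in dany (adjusted p = 0.0597), -3.07 in sa and -5.28 in topi and was at least 48.2-fold lower in aly. asRNA:CR43429, which overlaps the importin gene Impbeta11, changed by 0.55 in dany, -2.18 in sa and -3.78 in aly (-4.88 without aly replicate 1, -2.67 without aly replicate 2) and was at least 7.31-fold lower in topi. In dany they stood above the other 3 mutants averaged by 3.97 for asRNA:CR43465, 3.49 for asRNA:CR31845, 3.38 for asRNA:CR43430 and 4.19 for asRNA:CR43429, all called. The topi change was -4.21 for asRNA:CR31845 and -3.22 for asRNA:CR43430 without topi replicate 1, and -6.17 and -7.33 without topi replicate 2. Leaving out sa replicate 2 ended the sa call of asRNA:CR43429 (-0.99, adjusted p = 0.276), and leaving out sa replicate 1 ended those of asRNA:CR43430 (-2.88, adjusted p = 0.0676) and asRNA:CR31845 (-1.57, adjusted p = 0.0881).

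In aly and topi without a call in dany or sa, asRNA:CR31144, which overlaps the ribosomal protein gene RpL3, changed by -7.66 and -6.31. In dany and sa it changed by -1.83 and -1.94 (adjusted p = 0.0697 and 0.092), with every array below control. asRNA:CR43477 was at least 77.2-fold lower in aly and changed by -6.14 in topi, and asRNA:CR42738 changed by -4.37 in aly (-6.24 without aly replicate 1, -2.5 without aly replicate 2) and was at least 18.8-fold lower in topi. In dany and sa asRNA:CR43477 changed by -1.32 each (adjusted p = 0.101 and 0.148), also with every array below control. The standard deviation between topi arrays was 3.23 for asRNA:CR31144 and 2.59 for asRNA:CR43477, against 0.0868 and 0.167 in control. That spread enters the SE of every comparison of these targets. asRNA:CR43474, which overlaps the G-protein regulator gene loco, was at least 2.88-fold lower in aly and 2.41-fold in topi. In sa these stood above aly and topi averaged by 5.05 for asRNA:CR31144, 5.78 for asRNA:CR43477, 4.05 for asRNA:CR42738 and 2.51 for asRNA:CR43474, all called. Without topi replicate 1 the topi change was -4.03 for asRNA:CR31144 and -4.31 for asRNA:CR43477, and without topi replicate 2 it was -8.6 and -7.97. Called in topi and not in aly were 3 more: asRNA:CR43299 was at least 12.3-fold lower, asRNA:CR30267 at least 1.75-fold, and asRNA:CR43637 changed by -5.28. The first of these had an adjusted p of 0.0593 between aly and topi, and the second 0.6. The topi call of asRNA:CR30267 was lost without either topi array and without control replicate 1 or 4 (adjusted p = 0.0539 to 0.0957). asRNA:CR43637 was also called in dany (-1.29, adjusted p = 0.0391), a call lost in 11 alternative settings, and was 4.27 higher in aly than in topi (SE 0.622, adjusted p = 0.000939).

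Rises among the antisense RNAs were few. asRNA:CR43470 (3L, overlapping CG14830) was at -4.61, -3.91 and -4.82 in dany, -8.02 and -8.54 in sa, -6.98 and -8.05 in aly, and -7.89 and -7.57 in topi, against -7.48, -6.58, -7.1 and -7.36 in control. It stood above background on all dany arrays, on 1 control array and on no other, so it was kept through dany alone. The change was 2.68 in dany (SE 0.335, adjusted p = 5.69e-05), and 0.45 with normexp background correction. It was called lower in sa, where no fold is given and the call was lost without sa replicate 2 or control replicate 2 or 3. asRNA:CR43257 (2R, overlapping Orc4 and ETH) was at -2.68, -2.56 and -2.83 in dany, -3.5 and -3.79 in sa, -4.49 and -4.9 in aly, and -4.98 and -4.87 in topi, against -4.38, -5.12, -4.75 and -4.99 in control. The dany and sa arrays lay above control and the others overlapped it, with changes of 2.12 in dany (SE 0.211, adjusted p = 1.06e-05) and 1.16 in sa (SE 0.24, adjusted p = 0.00249). The sa call of asRNA:CR43257 was lost with slide as a fixed term (1.00, not past 2-fold), median scaling (0.88), quantile normalization (0.75), spike-in scaling (1.1, adjusted p = 0.206), normexp (0.55) and the deposited values (0.57).

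asRNA:CR43615 (X) overlaps dec, an eggshell gene. It was at -8.12, -7.93 and -9.64 in dany, -1.19 and -1.08 in sa, -5.98 and -7.48 in aly, and -5.91 and -5.53 in topi, against -7.8, -7.81, -8.16 and -8.53 in control. The sa arrays stood at least 4 log2 units above every other array, and the target was kept through sa alone. It was at least 40.6-fold higher in sa (adjusted p = 4.04e-06) and at least 1.7-fold in topi, where 1 of 2 arrays was above background (adjusted p = 0.00185). The call in aly (adjusted p = 0.0381) compared arrays that were all below background, and was lost without aly replicate 1 (0.59, adjusted p = 0.4), control replicate 3 or 4 or either sa array. asRNA:CR17025 (3R, overlapping side-IV) was at -8.39, -7.21 and -8.04 in dany, -5.62 and -5.37 in sa, -6.31 and -5.97 in aly, and -6.44 and -6.35 in topi, against -7.79, -9.24, -8.92 and -8.5 in control. Only the sa arrays were above background, so it was kept through sa alone. The RNA was at least 1.98-fold higher in sa (adjusted p = 0.000148), and the calls in aly and topi compared arrays that were all below background. With normexp background correction the sa change of asRNA:CR17025 was 0.52 and not called.

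asRNA:CR43609 (2L) overlaps Ir21a, which encodes a cool-sensing receptor. It was at -5.22, -4.94 and -5.53 in dany, -4.53 and -4.16 in sa, -1.66 and -1.31 in aly, and -3.86 and -3.73 in topi, against -5.39, -5.67, -5.49 and -6.3 in control. The sa, topi and aly arrays lay above control in that order, without overlap. The changes were 1.37 in sa (SE 0.286, adjusted p = 0.00266), 4.23 in aly (SE 0.286, adjusted p = 7.77e-07) and 1.92 in topi (adjusted p = 0.000149), and aly was 2.31 higher than topi (SE 0.331, adjusted p = 0.000855). The sa call of asRNA:CR43609 was lost with quantile normalization (0.83), spike-in scaling (1.31, adjusted p = 0.182), normexp (0.52) and the deposited values (0.69).

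asRNA:CR43468 (2R, overlapping AspRS, Lfg and Nmda1) was at -4.97, -4.77 and -5.41 in dany, -4.64 and -4.56 in sa, -2.76 and -2.79 in aly, and -2.64 and -2 in topi, against -5.13, -5.18, -5.79 and -5.51 in control. The aly and topi arrays were the highest and overlapped no other group. The changes were 2.62 in aly (SE 0.272, adjusted p = 1.18e-05) and 3.08 in topi (SE 0.272, adjusted p = 4.11e-06). asRNA:CR43454 was called higher in aly, at least 2.49-fold (adjusted p = 0.0101), a call lost without aly replicate 2 (adjusted p = 0.0762). Neither asRNA:CR42547 nor asRNA:CR43159 was called in any mutant.

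Calls of antisense RNAs were also lost under these settings. With spike-in scaling the calls lost were those of CR43426 and CR43637 in dany, CR31845, CR43257, CR43464, CR43465, CR43470 and CR43609 in sa, CR43454 and CR43615 in aly, and CR43463 in topi. With normexp they were those of CR43470 in dany, CR17025, CR43257, CR43464, CR43470 and CR43609 in sa, CR17025, CR43454 and CR43615 in aly, and CR17025, CR30267, CR43474 and CR43615 in topi. At least 1 of median scaling, quantile normalization and the deposited values ended those of CR43257, CR43470 and CR43609 in sa, and CR43615 in aly. With slide as a fixed or random term the calls lost were those of CR43257 and CR43464 in sa.

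Between mutants, most antisense calls were rises in dany or sa over the others. Of 28 asRNA targets 17 rose and 5 fell in dany relative to the other 3 mutants averaged, beside 29.3% and 33.7% of all targets, and the median difference was 2.52, against -0.39 for all targets. For lncRNA targets 17 were higher and 23 lower, with a median of -0.78. Set against aly and topi averaged, 17 asRNA targets were higher in sa and 2 lower (median 2.18), and 18 lncRNA targets were higher and 11 lower (median 0.09), beside 18.2% and 19.2% of all targets and a median of -0.32. Only 3 asRNA targets were higher and 2 lower in aly than in topi. The lncRNA split of dany against the other mutants was 24 higher and 6 lower with spike-in scaling and 12 and 33 with median scaling. For sa against aly and topi averaged the lncRNA split was 14 and 3, and 15 and 17, under these scalings.

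**Figure D5:**
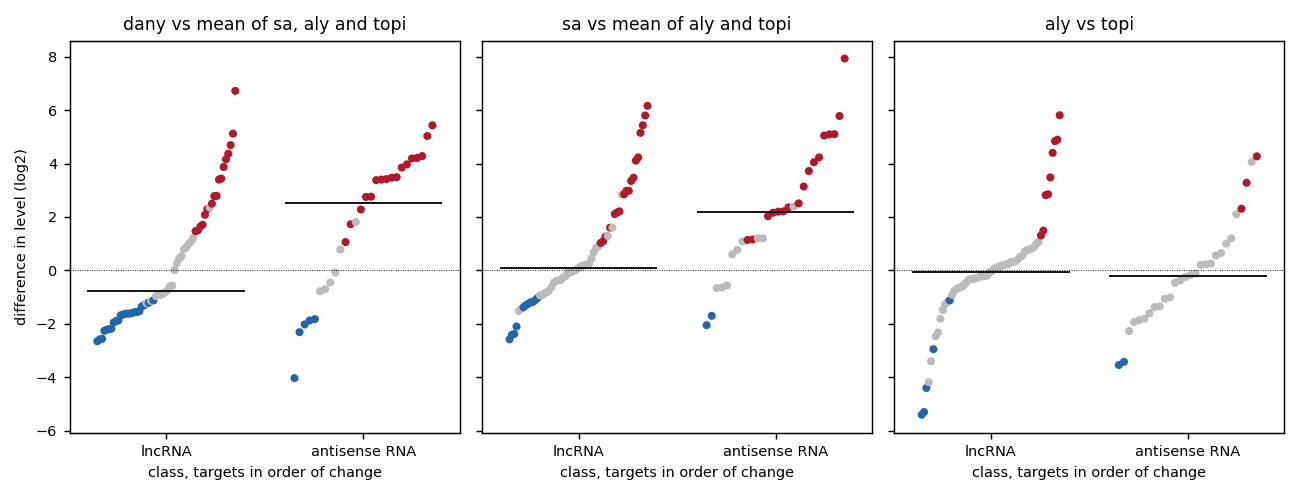
Difference in level between mutants (log2, vertical axis) for each lncRNA and asRNA target, ordered by size within its class, with 1 panel for dany minus the average of the other 3 mutants, 1 for sa minus the average of aly and topi, and 1 for aly minus topi. Red points were called higher and blue points lower in the first-named mutant, grey points were not called, and black lines are class medians, 2.52 and 2.18 for asRNA targets in the first pair of panels.

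The 35 targets that were dropped belonged to 25 lncRNA and 10 asRNA entries, and 29 genes had no kept target. Among these were the bithorax complex RNAs bxd and iab8, the yellow-achaete RNA yar, marge, the alphagamma-element RNA CR32865 and asRNA:Eig63F-2. The other lncRNA genes dropped entirely were CR30009, CR30121, CR31386, CR31647, CR32160, CR32194, CR32385, CR32730, CR33942, CR34044, CR34052, CR42646, CR42746, CR42839 and CR43314, and the other asRNA genes CR31514, CR33945, CR42742, CR42743, CR42860, CR42871, CR43160 and CR43467. Of the dropped targets 16 lncRNA and 6 asRNA ones were above background on no array, and in the remainder detection was incomplete in each genotype. Other noncoding RNAs by symbol made up 20 tested targets, of which 3 were higher and 2 lower in dany, with 5 and 0 for sa, 7 and 1 for aly, and 8 and 1 for topi.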

How the data were processed

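Testis RNA of 5 genotypes was measured on 13 one-colour Agilent arrays. Per the file headers, the authors' spot values are linear intensity, obtained in Agilent Feature Extraction (version 10.7.3.1) by protocol GE1_107_Sep09 for an array design whose annotation is dm3, including a background-subtracted processed signal with no scaling between arrays. Other deposited columns are flags of 0 or 1 for control spots, outliers and signals well above background. A processed table of the series, also deposited, gives values on the log2 scale. Its normalization is not given in the sources used here, and it served as an alternative.

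Control spots were left out and the spots of a probe averaged, giving 32162 probes of 25796 targets. Outlier spots were left out only where other spots of the probe remained. A RefSeq gene table of another build gave names, chromosomes and neighbours: 549 probes matched 1 symbol (393 by accession, 156 by clone name), 3 several and 31610 none. Levels were fitted with limma 3.58.1 (R 4.3.3), with 1 mean per group over all 13 arrays (8 residual and 2.42 prior degrees of freedom) and p-values adjusted over 19647 targets. The code was tested on simulated data. The number of arrays limits the precision, with a median standard error of 0.305 in the dany comparison and 0.346 in the 3 others with control. Where a genotype was below background on all its arrays, its level was raised, where needed, to the lowest level above background on each array before an "at least" fold was taken.

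No array had saturated spots. There were 4 slides, scanned over 3 days. Within every slide that held both groups, each member called against control kept its sign, except lncRNA:CR43157 in dany. Members and lists were chosen with earlier results of these data known. The labels do not say whether samples of a genotype came from separate cultures, so p-values measure only the spread between these samples, which may be technical. Each target is named; array values are given for lncRNA:Yu and for the 2 largest called rises and falls per class and mutant, and for others chosen after their values were seen. Normexp correction, planned on mean signals, used median signals. Probe and promoter sequences were not used here.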

Additional observations from a re-analysis of the deposited data

Results flagged for a closer look

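Of 88 targets, 5 had 1 of the 4 control arrays far from the other control arrays by Dixon's test, and chance flags about 1 in 20 such groups. asRNA:CR43159 was at 0.04 on control replicate 1, below the 1.16 to 1.34 of the others. asRNA:CR43430 was at -0.79 on control replicate 1, below -0.5 to -0.48. asRNA:CR43474 was at -5.12 on control replicate 3, below -4.5 to -4.4. lncRNA:CR34046 was at -4.73 on control replicate 1, below -3.97 to -3.87. lncRNA:CR43279 was at 6.03 on control replicate 2, above 5.48 to 5.49.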

How the results depend on the processing

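Of 194 called changes of a member against control, 116 stayed called in each of 24 alternative settings (13 leaving out 1 array and 11 others) in which the target was tested, and 190 kept their direction in all; the exceptions, all in dany, were lncRNA:CR32658 (0.27 with quantile normalization and 0.04 with the deposited values), lncRNA:CR40629 (-0.35), lncRNA:CR43126 (-0.2) and lncRNA:CR43157 (-0.45), these with normexp. Counts of called targets moved by over 1.5 times as follows. Restricting to targets above background on all 13 arrays, which leaves 31 lncRNA and 8 asRNA targets, gave 11 and 2 called in dany, 5 and 5 in sa, 18 and 6 in aly, 22 and 6 in topi, 18 and 7 for dany against the other mutants, 12 and 7 for sa against aly and topi, and 6 and 1 for aly against topi (lncRNA first). Median scaling gave 38 lncRNA and 15 asRNA targets in dany. Spike-in scaling gave 9 asRNA targets in sa and 17 lncRNA targets for sa against aly and topi, for which normexp gave 19. Quantile normalization gave 8 asRNA targets for aly against topi. With slide as a fixed term 13 asRNA targets were called in dany, and with slide as a random block (correlation 0.526) 13 asRNA targets in dany, 28 lncRNA targets in sa and 8 asRNA targets for aly against topi. Leaving out 1 array at a time gave 18 to 27 lncRNA and 7 to 12 asRNA targets in dany, 14 to 22 and 11 to 16 in sa, 36 to 41 and 20 to 22 in aly, and 41 to 47 and 22 to 25 in topi; for dany against the other mutants 37 to 45 and 21 to 23, for sa against aly and topi 19 to 29 and 15 to 21, and for aly against topi 10 to 19 and 5 to 12. With group means removed, arrays that shared a slide and a replicate number correlated at a median of 0.621. Those that shared only the number had a median of 0.0339 and ranged from -0.048 to 0.677, and those that shared neither ranged from -0.746 to 0.518. Pairs with a topi array lay near 0 even within a slide (0.02 for aly replicate 2 and topi replicate 1). These medians therefore cannot decide whether the numbers pair the samples, and the main fit did not use them as pairs. With the replicate block, 6 lncRNA targets rose and 17 fell in dany, and no count of called targets moved by over 1.5 times. The cause of these shifts was not tested, except that the restriction to 13 arrays tests fewer targets.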
